A study of Homo sapiens with 12 samples.

Results

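The genes described here act in the nerve terminal: proteins of the synaptic vesicle membrane, calcium sensors, SNARE proteins and their regulators, active zone proteins, synapsins, endocytosis proteins and presynaptic adhesion or growth cone proteins. They were taken as the rows of an RNA-Seq count table whose symbol is on a list of 48 presynaptic genes, and 42 of the 48 symbols had a row among the 14438 genes of the table. The rule uses the symbol and the presence of a row, and all 42 entered the tests. The presence of a row may itself depend on level, since a filter whose terms are not given left the 14438 genes. SV2C, SYT4, SYT5, SNAP25, SYN1 and CPLX2 had no row and are not analysed here. The list was put together with earlier results on these counts known, so its counts of changed genes describe these libraries and are not independent support for a direction.

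In a nerve terminal, vesicles filled with transmitter are tethered and primed at the active zone by RIM, Munc13, Bassoon and Piccolo proteins. A SNARE complex of a syntaxin, a SNAP25 family protein and a VAMP then pulls the vesicle and plasma membranes together, and a synaptotagmin that binds calcium triggers fusion. Amphiphysin, dynamin and synaptojanin take the membrane back by endocytosis. Most of these families also have members that serve secretion and membrane traffic in cells that are not neurons. EZH2 is the catalytic subunit of the Polycomb repressive complex PRC2, which methylates histone H3 at lysine K27, a mark of repressed genes, and many neuronal genes carry that mark outside the nervous system.

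RNA was sequenced from HEK293T, a human embryonic kidney cell line, in 4 stable lines made with lentivirus. Each line carried an introduced EZH2: WT, the gain-of-function (GOF) forms Y641F or A677G, or the loss-of-function (LOF) double mutant H689A/F667I. All 4 lines still had their own EZH2, all went through blasticidin selection meant to give monoclonal populations, and none of the 12 libraries came from uninfected or empty-vector cells. There were 3 biological replicates of each line. Each EZH2 form is represented by 1 line, so a difference between EZH2 forms and a difference between lines cannot be told apart.

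The counts of a library summed to between 32137700 and 44562400, and the 42 genes together took from 617 to 680 CPM, which are counts scaled to a common library size. EZH2 transcript, introduced and endogenous together, was 157, 163 and 154 CPM in WT, 228, 209 and 217 in Y641F, 174, 165 and 182 in A677G and 208, 210 and 206 in H689A/F667I, so the LOF line did not have less EZH2 mRNA than WT. Replicate 1 of Y641F stood apart on the first principal component of all genes (33.7% of the variance), with a score of 5.60 against 17.7 and 17.1 for replicates 2 and 3. Of 9 kidney and epithelial markers, 6 had a row, KRT18 among them at 34.2 ± 1.97 CPM (SD, n = 3) in WT, while PAX8, CDH16 and UMOD had none.

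The promoters of 33 of the 42 genes were taken from RefSeq on GRCh38.p14, as 250 bases before to 50 after the first start listed for each gene. They held a median of 33 CG pairs with a range of 3 to 55. Other starts were not examined, and the window with 3, that of SV2A, lies inside the gene. The median was 26 over the 10532 genes of the count table that have a promoter and 14 over all 27305 promoters. The 8 promoters of genes lower in Y641F or A677G (2 had none) had a median of 31 CG pairs, against 33 for the 25 promoters of the other genes. The 250 bases before that start are printed for 4 genes, since they show how far these windows differ. SYT14, AMPH and GAP43 were lower in both GOF lines, and SYT1, the main calcium sensor of fast release, was lower in neither. The genes SYT14 and SYT1 begin at chr1:209900923 and chr12:78863993, so their windows lie inside the gene, at a later start. CG pairs are in capitals, and the sequences run 5′ to 3′ on the strand of the gene, from the windows chr1:209937967-209938216 (plus strand), chr7:38631374-38631623 (minus), chr3:115623260-115623509 (plus) and chr12:78864524-78864773 (plus).
SYT14: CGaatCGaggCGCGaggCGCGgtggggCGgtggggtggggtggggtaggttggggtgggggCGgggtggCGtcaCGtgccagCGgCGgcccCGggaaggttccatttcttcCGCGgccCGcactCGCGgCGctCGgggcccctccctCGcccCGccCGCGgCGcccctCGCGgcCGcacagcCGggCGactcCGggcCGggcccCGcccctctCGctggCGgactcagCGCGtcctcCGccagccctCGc
AMPH: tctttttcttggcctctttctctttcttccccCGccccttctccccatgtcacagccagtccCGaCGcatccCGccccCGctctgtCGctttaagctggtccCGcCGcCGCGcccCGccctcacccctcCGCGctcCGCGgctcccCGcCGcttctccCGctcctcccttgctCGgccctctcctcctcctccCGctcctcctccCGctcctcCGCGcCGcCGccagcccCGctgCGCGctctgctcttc
GAP43: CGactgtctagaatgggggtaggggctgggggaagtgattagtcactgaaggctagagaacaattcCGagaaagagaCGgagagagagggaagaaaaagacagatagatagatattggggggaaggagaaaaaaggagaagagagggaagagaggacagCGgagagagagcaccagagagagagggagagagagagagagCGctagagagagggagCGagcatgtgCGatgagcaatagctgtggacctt
SYT1: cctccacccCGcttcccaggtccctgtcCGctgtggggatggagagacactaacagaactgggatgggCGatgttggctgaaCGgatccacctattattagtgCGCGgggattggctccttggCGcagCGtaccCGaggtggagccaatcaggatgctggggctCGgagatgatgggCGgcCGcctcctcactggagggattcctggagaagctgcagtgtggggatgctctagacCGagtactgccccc
These stretches hold 39 CG pairs in SYT14, 28 in AMPH, 7 in GAP43 and 13 in SYT1. Genes that were lower thus had stretches both richer and poorer in CG than a gene that was not called. REST is a repressor of neuronal genes that binds a long element, and the letters TCAGCACC and GGACAGCG, its left and right parts, were searched for on both strands. Either was found in 5 of the 33 promoters (15.2%), against 3.83% of the promoters of genes in the count table: GGACAGCG in BSN and GAP43, TCAGCACC in PCLO and PPFIA1, and both in UNC13A. A match says only that these letters are in the window.

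The first question was whether these genes differ between each mutant line and WT. Counts were fitted in edgeR with TMM normalization, and a gene was called lower or higher where the Benjamini-Hochberg adjusted p-value of the quasi-likelihood test over 14263 genes was under 0.05. In Y641F, 8 of the 42 genes were lower (19.0%) and 0 higher, where 5.59% of all genes were called lower and 2.09% higher. In A677G, 8 were lower (19.0%) and 1 higher (2.38%), where 6.48% of all genes were lower and 2.07% higher. In the LOF line 0 of the 42 passed in either direction, with 3 at an unadjusted p under 0.05, and 0 passed with edgeR's exact test, DESeq2 or limma voom. The background there was 0.161% lower and 0.14% higher. The median log2 fold change of the 42 genes was -0.11 in Y641F, -0.18 in A677G and 0.04 in H689A/F667I, with all genes at a median of 0.00 in each comparison. The 3 comparisons share the WT libraries.

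**Figure D1:**
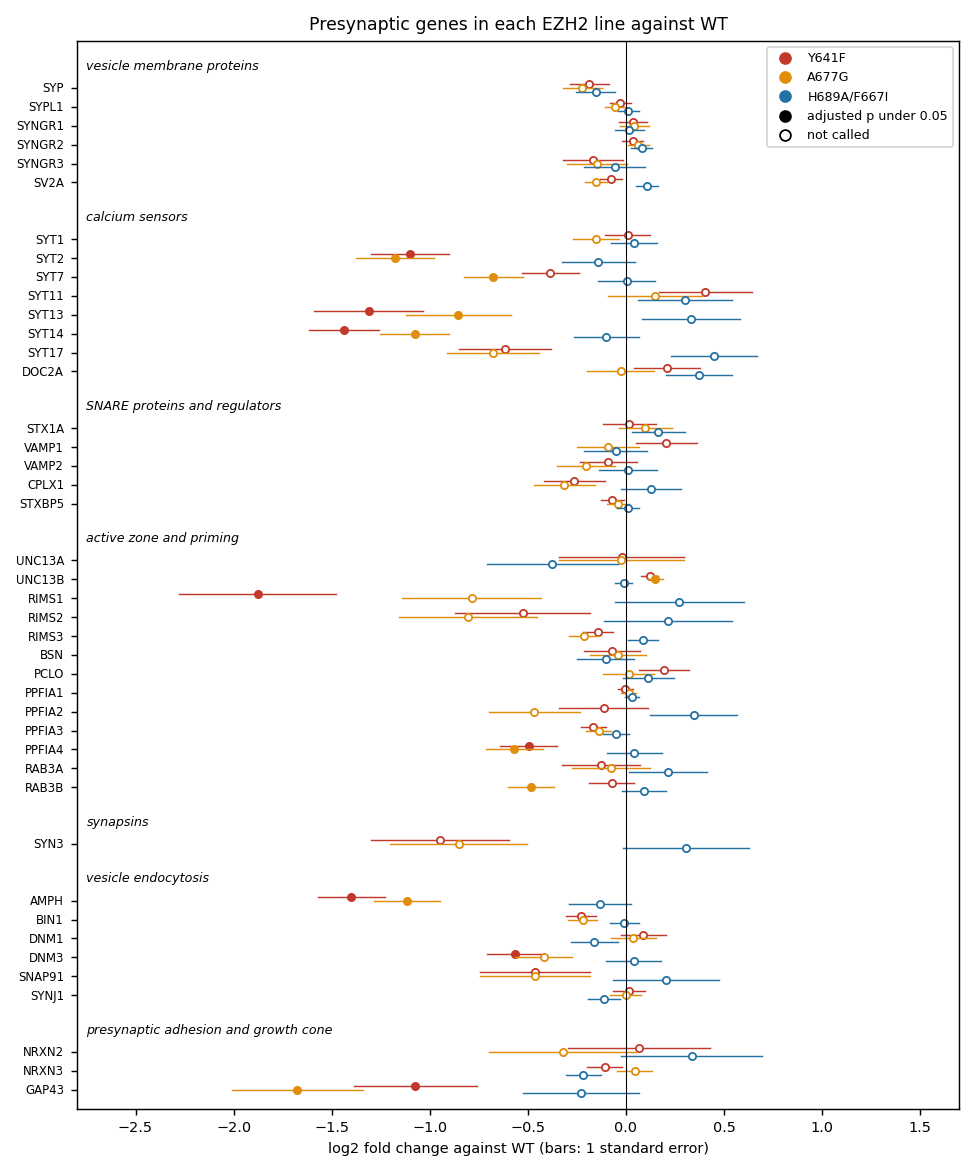
Log2 fold change against WT (x axis) of the 42 presynaptic genes (rows, grouped by role) in Y641F, A677G and H689A/F667I, with bars of 1 standard error; filled points passed an adjusted p of 0.05 and open points did not. Filled points lie left of 0 for SYT2, SYT7, SYT13, SYT14, RIMS1, PPFIA4, RAB3B, AMPH, DNM3 and GAP43 and right of 0 for UNC13B, and no point of H689A/F667I is filled.

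Over all samples 32 of the 42 genes had a mean under 20 CPM, a limit chosen after the values were seen, and of those 25% were lower in Y641F and 25% in A677G. Of the 6537 genes under 20 CPM in the whole table, 8.70% and 10.2% were. Of the 10 presynaptic genes at or over 20 CPM, 0 were lower in either line, where 2.95% and 3.30% of all such genes were. Leaving out replicate 1 of Y641F gave 11 genes lower in that line, with BIN1, PPFIA3 and RAB3B added. Over all genes 943 were then lower, against 797 with every library. The count in Y641F was 5 without its replicate 2 (658 over all genes). In A677G it was 5 lower and 0 higher without WT replicate 2, with 683 and 142 over all genes, against 924 and 295 with every library. Of 12 markers of neurons outside the vesicle cycle, 7 had a row, and 4 were lower in Y641F (57.1%, against 5.59% of all genes). In A677G 3 were lower (42.9%, against 6.48%) and in H689A/F667I 2 (28.6%, against 0.161%). TUBB3, INA and NEFH were called in none of these comparisons. The 7 summed to between 372 and 388 CPM in WT, 238 and 279 in Y641F, 208 and 231 in A677G, and 318 and 328 in H689A/F667I. Such a sum is weighted to the genes with the highest level. In bulk RNA, fewer cells of a type and less RNA per cell cannot be told apart, and the part of either in the values below was not tested.

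Of the group listed as calcium sensors, not all of which bind calcium, 8 had a row. In Y641F 3 fell (37.5%, against 5.59% of all genes) and in A677G 4 (50%, against 6.48%). With so few genes to a role these shares are coarse, and no role was tested as a set. SYT2 (chr1:202590596-202710454, minus strand), a fast calcium sensor and close relative of SYT1, stood at 6.20, 5.18 and 5.28 CPM in the 3 WT libraries, 3.68, 2.02 and 2.03 in Y641F, 1.71, 2.83 and 2.88 in A677G and 3.95, 5.48 and 5.71 in H689A/F667I. All 6 GOF libraries lay below all 3 WT libraries, while the LOF libraries overlapped them. How many of all genes separate in this way was not counted, here or for the genes below. The level was 2.14-fold lower in Y641F (log2 fold change -1.10 ± 0.20 SE, adjusted p = 0.000188) and 2.26-fold lower in A677G (log2 fold change -1.18 ± 0.20 SE, adjusted p = 7.43e-05). SYT2 overlaps PPP1R12B on the other strand, which was called in none of the comparisons with WT.

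SYT14 (chr1:209900923-210171389, plus strand), a synaptotagmin that does not bind calcium, had the smallest adjusted p of the family in Y641F. It measured 5.09, 4.06 and 5.67 CPM in WT, 2.12, 1.58 and 1.75 in Y641F, 2.09, 2.75 and 2.17 in A677G and 4.49, 5.12 and 4.16 in H689A/F667I. Every GOF library lay below every library of the other lines. The fall was 2.71-fold in Y641F (log2 fold change -1.44 ± 0.18 SE, adjusted p = 5.06e-07) and 2.11-fold in A677G (log2 fold change -1.08 ± 0.17 SE, adjusted p = 3.74e-05).

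SYT13 (chr11:45240302-45286341, minus strand), another member without calcium binding, had 2.44, 1.60 and 1.45 CPM in WT and 0.856, 0.840 and 0.520 in Y641F, a 2.48-fold fall (log2 fold change -1.31 ± 0.28 SE, adjusted p = 0.00152). In A677G it had 1.26, 0.885 and 0.878 CPM and was 1.81-fold lower (log2 fold change -0.85 ± 0.27 SE, adjusted p = 0.0382), and in the LOF line 2.00, 2.50 and 2.42. The WT and GOF libraries did not overlap. The A677G call rested on single libraries: the adjusted p was 0.298 without WT replicate 1, 0.0541 without WT replicate 2, 0.148 without A677G replicate 2, 0.136 without A677G replicate 3 and 0.0505 without H689A/F667I replicate 2, which shares the estimate of the spread.

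SYT7 (chr11:61513714-61581148, minus strand), a slow, high-affinity sensor that also serves lysosome exocytosis, had 5.20, 4.84 and 4.95 CPM in WT, 3.80, 3.94 and 3.74 in Y641F, 3.23, 3.24 and 2.88 in A677G and 4.87, 4.25 and 5.96 in H689A/F667I. Both GOF lines lay wholly below WT, and the test passed in A677G (1.60-fold lower, log2 fold change -0.68 ± 0.15 SE, adjusted p = 0.00200) and not in Y641F (log2 fold change -0.38 ± 0.15 SE, adjusted p = 0.110). SYT17 lay below WT in both GOF lines and above it in the LOF line, without a call against WT: 1.80 ± 0.215 CPM (SD, n = 3) in WT, 1.18 ± 0.134 in Y641F, 1.13 ± 0.124 in A677G and 2.47 ± 0.108 in H689A/F667I, with adjusted p values of 0.107, 0.0657 and 0.597. In A677G it passed with limma voom, DESeq2 and the exact test of edgeR, and did not with upper-quartile scaling.

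The genes of this group that were not called in any comparison with WT include the best known sensor, SYT1. SYT1 had 10.3 ± 1.91 CPM in WT, 10.3 ± 0.363 in Y641F, 9.23 ± 0.753 in A677G and 10.5 ± 1.61 in H689A/F667I (SD, n = 3 each), with log2 fold changes of 0.01 ± 0.12 (SE), -0.15 ± 0.12 (SE) and 0.04 ± 0.12 (SE). SYT11, which restrains endocytosis, had 1.55 ± 0.269, 2.06 ± 0.460, 1.73 ± 0.386 and 1.904 ± 0.210 CPM in the same order. DOC2A, a sensor for spontaneous and asynchronous release, had 3.17 ± 0.117, 3.66 ± 0.401, 3.10 ± 0.563 and 4.11 ± 0.521 CPM. Per kilobase of its longest transcript, SYT1 in WT had 1.66 CPM, DOC2A 0.845, SYT2 0.727, SYT7 0.691, SYT14 0.364, SYT13 0.354, SYT17 0.354 and SYT11 0.299. The genes not called against WT were thus SYT1 and DOC2A at the top, SYT11 at the bottom, and SYT17.

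**Figure D2:**
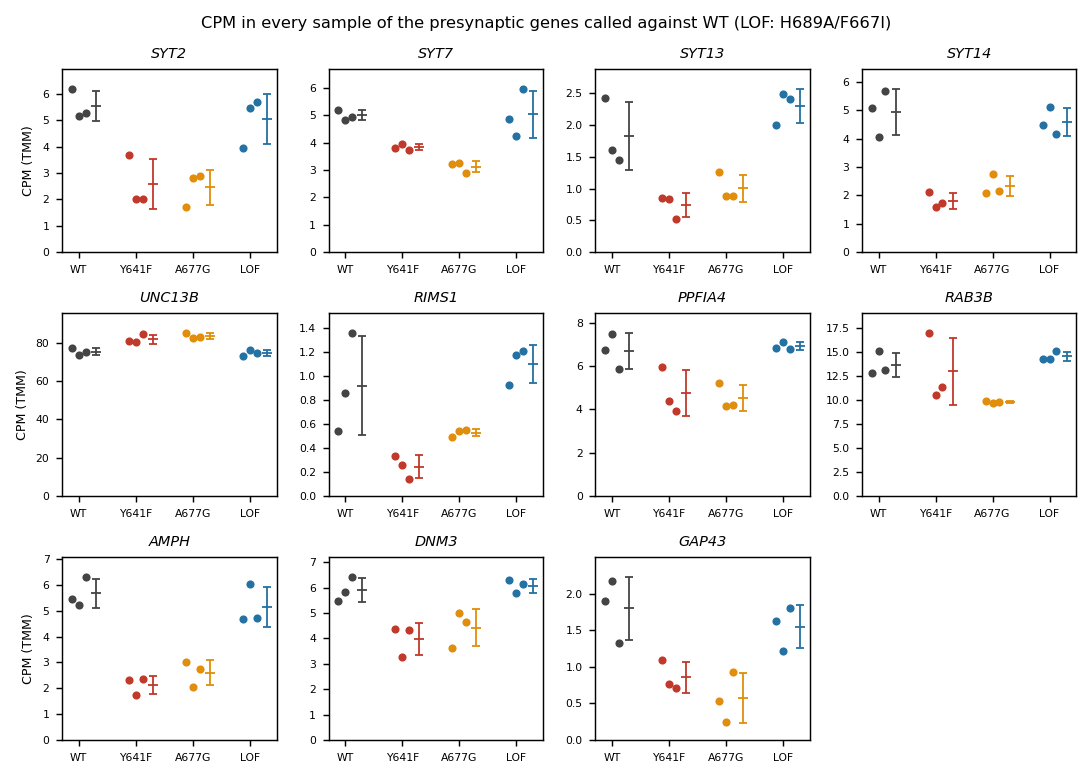
CPM after TMM normalization (y axis, from 0) in every library of the 11 presynaptic genes called against WT in Y641F or A677G; points are the replicates 1 to 3 of each line and the bars beside them the mean and SD (n = 3), with LOF for H689A/F667I. For SYT2, SYT7, SYT13, SYT14, AMPH, DNM3 and GAP43 all 6 GOF libraries lie below all 6 others, for UNC13B all 6 lie above them, and RIMS1, PPFIA4 and RAB3B overlap in at least 1 library. The genes were picked by calls on these same libraries, so the separation adds no support of its own. Its share over all genes was not counted.

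Of 13 active zone and priming genes, all with a row, 2 fell in Y641F (15.4%, against 5.59% of all genes). In A677G 2 fell (15.4%, against 6.48%) and 1 rose (7.69%, against 2.07%). RIMS1 (chr6:71886550-72403150, plus strand), a scaffold that recruits calcium channels and Munc13, had 0.541, 0.854 and 1.36 CPM in WT, 0.333, 0.263 and 0.142 in Y641F, 0.494, 0.541 and 0.548 in A677G and 0.920, 1.17 and 1.21 in H689A/F667I. Y641F lay wholly below WT, and A677G overlapped it. The difference was 3.67-fold in Y641F (log2 fold change -1.88 ± 0.40 SE, adjusted p = 0.00147) and did not pass in A677G (log2 fold change -0.79 ± 0.35 SE, adjusted p = 0.190). These are low counts, from 6 to 14 in Y641F and from 20 to 45 in WT, and the gene drops out of the tests where at least 10 counts are asked of every sample.

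PPFIA4 (chr1:203026491-203078740, plus strand), liprin-alpha 4 of the active zone scaffold, measured 6.77, 7.51 and 5.85 CPM in WT, 5.97, 4.39 and 3.93 in Y641F, 5.21, 4.15 and 4.20 in A677G and 6.85, 7.13 and 6.80 in H689A/F667I. Replicate 1 of Y641F overlapped WT, and A677G did not. The gene was 1.41-fold lower in Y641F (log2 fold change -0.50 ± 0.14 SE, adjusted p = 0.0238) and 1.48-fold lower in A677G (log2 fold change -0.57 ± 0.14 SE, adjusted p = 0.00752). The Y641F call was lost without WT replicate 1 (adjusted p = 0.0766), WT replicate 2 (0.175), Y641F replicate 2 (0.0913) or Y641F replicate 3 (0.169), and the A677G call without WT replicate 2 (0.0798) or A677G replicate 2 (0.0552).

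The other liprins were not called against WT. PPFIA1, the form found in most tissues, was at 118 ± 2.16 CPM in WT, 118 ± 1.54 in Y641F, 120 ± 3.02 in A677G and 121 ± 0.884 in H689A/F667I (SD, n = 3). Its log2 fold changes had a standard error of 0.04 and ran from 0.00 to 0.03. PPFIA2 had 1.92 ± 0.210, 1.78 ± 0.348, 1.39 ± 0.174 and 2.43 ± 0.505 CPM in that order, and PPFIA3 had 31.1 ± 0.896, 27.7 ± 2.50, 28.2 ± 0.560 and 30.0 ± 1.91 CPM.

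RAB3B (chr1:51907956-51990700, minus strand), a vesicle GTPase that binds RIM, had 12.8, 15.1 and 13.2 CPM in WT, 9.94, 9.68 and 9.76 in A677G and 14.3, 14.3 and 15.1 in H689A/F667I. It fell 1.40-fold in A677G (log2 fold change -0.48 ± 0.12 SE, adjusted p = 0.00444), and the call was lost without WT replicate 2 (adjusted p = 0.0617). In Y641F it had 17.0, 10.6 and 11.4 CPM, with the value of replicate 1 above every WT library and replicates 2 and 3 below them. The fold change there was -0.07 ± 0.11 (SE, adjusted p = 0.802) with all replicates and -0.32 ± 0.10 (SE, adjusted p = 0.0297) without replicate 1. Its relative RAB3A, the main RAB3 of brain vesicles, had 3.84 ± 0.376, 3.49 ± 1.42, 3.63 ± 0.937 and 4.45 ± 0.376 CPM in WT, Y641F, A677G and H689A/F667I, and was not called against WT.

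UNC13B (chr9:35161992-35405338, plus strand), the Munc13-2 priming factor, was the gene that rose. It had 77.0, 73.5 and 75.2 CPM in WT, 80.6, 80.3 and 84.5 in Y641F, 85.0, 82.5 and 82.7 in A677G and 73.1, 76.2 and 74.6 in H689A/F667I. The GOF libraries lay above all others, but by little: 1.11-fold in A677G (log2 fold change 0.15 ± 0.04 SE, adjusted p = 0.0184) and 1.09-fold in Y641F (log2 fold change 0.12 ± 0.04 SE, adjusted p = 0.0735). The A677G call was lost without WT replicate 2 (adjusted p = 0.108) or A677G replicate 1 (0.103). UNC13A, the main brain form, was at 0.987 ± 0.331, 0.979 ± 0.0533, 0.973 ± 0.425 and 0.766 ± 0.0910 CPM, with standard errors of 0.32 to 0.33 on the log2 scale, wider than the change in UNC13B. RIMS2 had 0.812 ± 0.0761, 0.559 ± 0.133, 0.468 ± 0.133 and 0.942 ± 0.273 CPM in the 4 lines. RIMS3, a short RIM without the parts that bind RAB3 and Munc13, had 19.5 ± 0.502, 17.7 ± 0.354, 16.8 ± 0.942 and 20.8 ± 1.98 CPM in the 4 lines. The large scaffolds BSN (Bassoon) and PCLO (Piccolo) had log2 fold changes between -0.10 and 0.20 in the 3 comparisons, and neither was called.

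Of 6 endocytosis genes, 2 fell in Y641F (33.3%, against 5.59% of all genes). In A677G 1 fell (16.7%, against 6.48%), so that share rests on a single gene. AMPH (chr7:38383704-38631420, minus strand), amphiphysin, which bends membrane and brings dynamin to the neck of the budding vesicle, had 5.47, 5.23 and 6.31 CPM in WT, 2.33, 1.73 and 2.34 in Y641F, 3.01, 2.06 and 2.74 in A677G and 4.68, 6.04 and 4.72 in H689A/F667I. No GOF library reached the level of any library of the other lines. The fall was 2.64-fold in Y641F (log2 fold change -1.40 ± 0.17 SE, adjusted p = 3.09e-07) and 2.17-fold in A677G (log2 fold change -1.12 ± 0.17 SE, adjusted p = 1.08e-05), and it passed with every replicate left out in turn. BIN1, amphiphysin 2, a relative with a wide tissue range, had 28.8 ± 0.958 CPM in WT, 24.5 ± 2.71 in Y641F, 24.7 ± 1.65 in A677G and 28.7 ± 2.82 in H689A/F667I. All 6 of its GOF libraries lay below WT, at log2 fold changes of -0.23 ± 0.07 (SE, adjusted p = 0.0524) and -0.22 ± 0.07 (SE, adjusted p = 0.0616), just outside the threshold, and both passed with limma voom, upper-quartile scaling and the exact test of edgeR but not with DESeq2.

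DNM3 (chr1:171817887-172418466, plus strand), a dynamin of brain and testis that pinches vesicles off, had 5.49, 5.82 and 6.43 CPM in WT, 4.37, 3.26 and 4.33 in Y641F, 3.61, 5.01 and 4.66 in A677G and 6.30, 5.78 and 6.14 in H689A/F667I. It fell 1.48-fold in Y641F (log2 fold change -0.56 ± 0.14 SE, adjusted p = 0.00977). In A677G, which also lay wholly below WT, it had a log2 fold change of -0.42 ± 0.14 (SE, adjusted p = 0.0634) and passed with limma voom, the exact test of edgeR and a fit of the compared lines alone but not with DESeq2 or upper-quartile scaling. The Y641F call was lost without WT replicate 3 (0.0566) or Y641F replicate 2 (0.0766). PIGC lies within DNM3 on the other strand and was called in none of the 3 comparisons. DNM1, the main neuronal dynamin, had 9.49 ± 0.826, 10.1 ± 1.07, 9.77 ± 1.11 and 8.53 ± 1.53 CPM in the 4 lines and was not called. SNAP91, a clathrin assembly protein, and SYNJ1, synaptojanin 1, were not called against WT either, with log2 fold changes of -0.46 ± 0.28 (SE) and 0.02 ± 0.08 (SE) in Y641F.

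GAP43 (chr3:115623510-115721490, plus strand), a growth cone protein that binds calmodulin, had the largest fall of the called genes among the 42 in A677G. It had 1.89, 2.17 and 1.33 CPM in WT, 1.09, 0.762 and 0.709 in Y641F, 0.538, 0.246 and 0.932 in A677G and 1.62, 1.22 and 1.80 in H689A/F667I, and both GOF lines lay wholly below WT. The fall was 3.19-fold in A677G (log2 fold change -1.67 ± 0.33 SE, adjusted p = 0.000562) and 2.11-fold in Y641F (log2 fold change -1.07 ± 0.31 SE, adjusted p = 0.0255). The count was as low as 10 in an A677G library. The Y641F call was lost without WT replicate 1 (adjusted p = 0.0897), WT replicate 2 (0.164), Y641F replicate 2 (0.0812) or Y641F replicate 3 (0.111). The adhesion genes NRXN2 and NRXN3, neurexins that bind partners across the synaptic cleft, were not called, and NRXN3 stood at 16.8 ± 2.40 CPM in WT, 15.6 ± 1.65 in Y641F, 17.4 ± 0.776 in A677G and 14.5 ± 0.643 in H689A/F667I.

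The fusion machinery and the vesicle membrane gave no calls against WT. STX1A, the syntaxin of the release SNARE complex, had 4.93, 4.97 and 4.71 CPM in WT, 5.04, 5.20 and 4.56 in Y641F, 5.14, 5.19 and 5.32 in A677G and 5.76, 4.56 and 6.11 in H689A/F667I. VAMP2, the vesicle SNARE, had 4.93, 4.87 and 3.80 in WT, 4.26, 3.86 and 4.68 in Y641F, 4.13, 4.08 and 3.59 in A677G and 4.98, 4.35 and 4.38 in H689A/F667I. Log2 fold changes of the 5 SNARE genes ran from -0.26 to 0.21 in Y641F and from -0.31 to 0.10 in A677G, with CPLX1 (complexin 1, which clamps the complex) the lowest in both. The most used marker of synaptic vesicles, SYP (synaptophysin), had 12.3, 12.2 and 13.6 CPM in WT, 10.9, 11.7 and 10.8 in Y641F, 9.27, 10.9 and 12.6 in A677G and 11.1, 10.9 and 12.2 in H689A/F667I, with log2 fold changes of -0.19 ± 0.10 (SE), -0.22 ± 0.10 (SE) and -0.15 ± 0.10 (SE). The 6 vesicle membrane genes ran from -0.19 to 0.04 in Y641F and from -0.22 to 0.06 in A677G. SYN3, a synapsin that ties vesicles to the cytoskeleton, had 0.704, 1.19 and 1.48 CPM in WT, 0.357, 0.446 and 0.922 in Y641F, 0.673, 0.393 and 0.795 in A677G and 1.54, 1.22 and 1.40 in H689A/F667I, so the GOF values overlapped WT and were below the LOF line (0.0979 and 0.139 were the adjusted p values against WT). TIMP3, which lies within SYN3 on the other strand, was lower in Y641F (log2 fold change -0.36, adjusted p = 0.000362) and in A677G (-0.45, adjusted p = 1.49e-05).

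**Figure D3:**
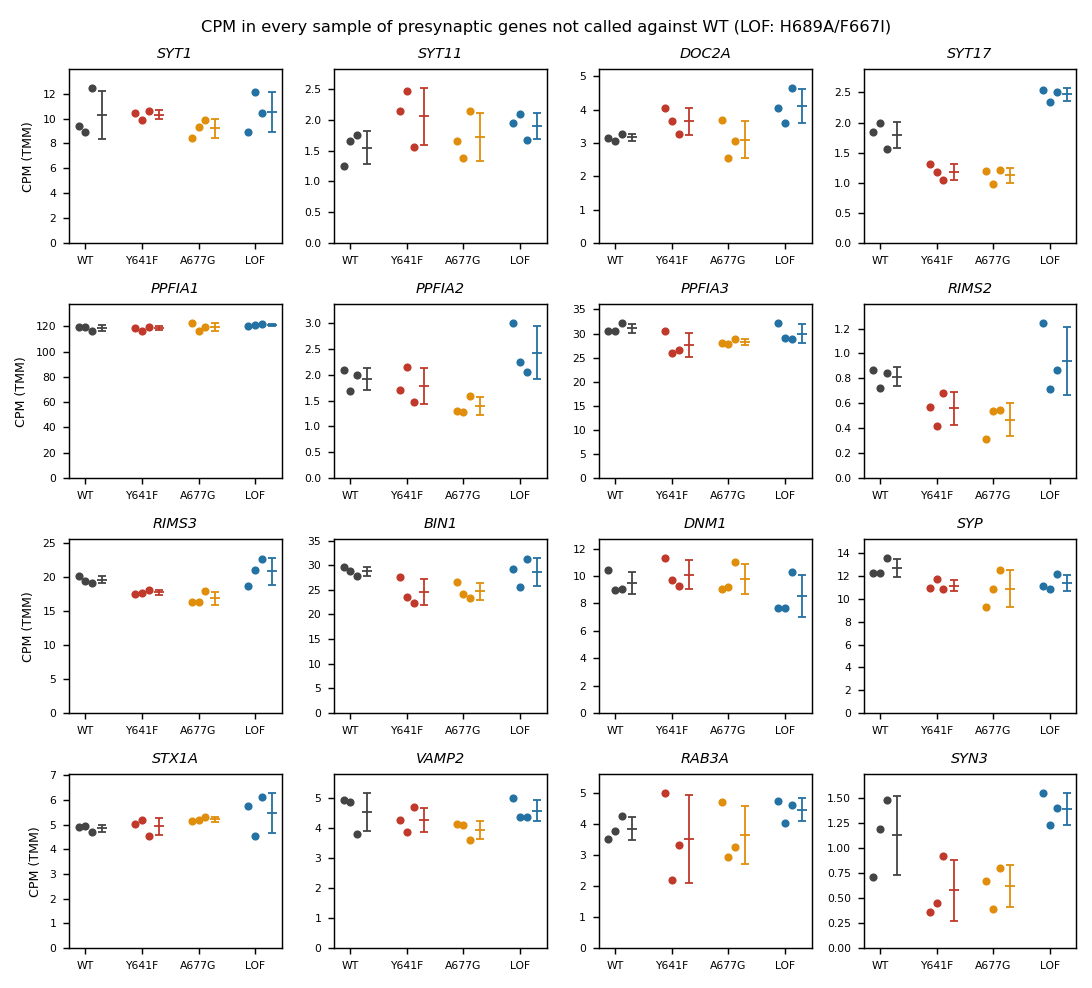
CPM after TMM normalization (y axis, from 0) in every library of 16 presynaptic genes that were not called against WT, relatives of called genes or defining genes of the vesicle cycle; points are replicates 1 to 3 of each line, bars the mean and SD (n = 3), and LOF is H689A/F667I. SYT1, PPFIA1, STX1A and VAMP2 overlap between the GOF lines and the LOF line, while SYT17, RIMS2, RIMS3 and SYN3 lie lower in all 6 GOF libraries than in the 3 LOF libraries. The share of all genes that separate in this way was not counted.

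The GOF lines were also compared with the LOF line. In this contrast the WT libraries enter only the normalization and the estimate of the spread. Against H689A/F667I, the mean of Y641F and A677G was lower in 18 of the 42 genes (42.9%) and higher in 1, where 8.75% of all genes were lower and 3.81% higher. The median of the 42 was -0.22. Under 20 CPM, 50% of the presynaptic genes were lower against 13.6% of all such genes, and at or over 20 CPM 20% against 4.65%. The count without a single library ran from 13, without H689A/F667I replicate 3, to 20, without Y641F replicate 1. Over all genes 975 and 1433 were lower in these fits, against 1248 with every library.

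The 10 genes called lower against WT in a GOF line were considered first. Their log2 fold changes were -0.999 ± 0.169 (SE) in SYT2, -0.53 ± 0.13 (SE) in SYT7, -1.41 ± 0.22 (SE) in SYT13 and -1.16 ± 0.15 (SE) in SYT14. They were -1.60 ± 0.31 (SE) in RIMS1, -0.58 ± 0.12 (SE) in PPFIA4, -0.37 ± 0.10 (SE) in RAB3B, -1.12 ± 0.14 (SE) in AMPH, -0.53 ± 0.12 (SE) in DNM3 and -1.15 ± 0.28 (SE) in GAP43, and UNC13B was higher (log2 fold change 0.15 ± 0.04 SE, adjusted p = 0.00476). The comparisons use the same GOF libraries, so the values are not independent of those against WT.

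The further 8 genes lower against the LOF line were SYT17, RIMS2, RIMS3, PPFIA2, SYN3, SV2A, CPLX1 and BIN1. SYT17 had a log2 fold change of -1.10 ± 0.19 (SE, adjusted p = 6.33e-05), and its GOF and LOF libraries did not overlap. The log2 fold change was -1.21 ± 0.29 (SE, adjusted p = 0.00291) in SYN3, -0.88 ± 0.29 (SE, adjusted p = 0.0381) in RIMS2 and -0.64 ± 0.19 (SE, adjusted p = 0.0209) in PPFIA2. Smaller falls were -0.27 ± 0.07 (SE, adjusted p = 0.00432) in RIMS3, -0.22 ± 0.05 (SE, adjusted p = 0.00145) in SV2A, the vesicle protein that binds the drug levetiracetam, and -0.22 ± 0.06 (SE, adjusted p = 0.0206) in BIN1. CPLX1 had a log2 fold change of -0.42 ± 0.13 (SE, adjusted p = 0.0313), with 1 LOF library at 3.97 CPM among the GOF values. Of these calls, SV2A and PPFIA2 were lost without H689A/F667I replicate 1 (adjusted p = 0.0533 and 0.254), RIMS3 without replicate 3 (0.0911), as were SYT7 (0.0775) and RAB3B (0.0545), and RIMS2, CPLX1 and BIN1 without any of several libraries (up to 0.326, 0.272 and 0.224). SYT2, SYT13, SYT14, SYT17, RIMS1, PPFIA4, SYN3, AMPH, DNM3 and GAP43 stayed lower with any 1 library left out.

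**Figure D4:**
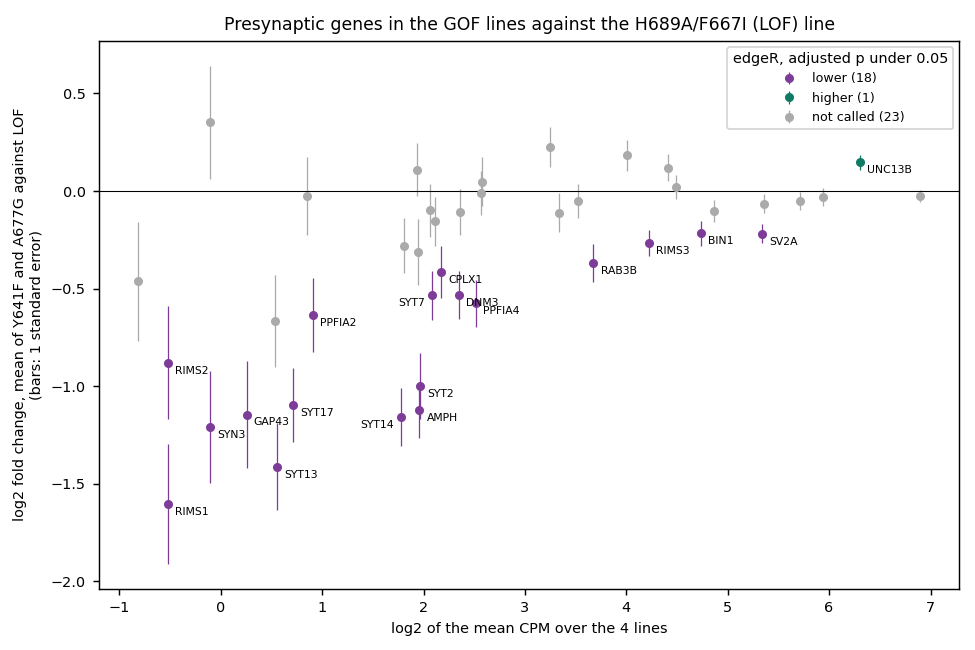
Log2 fold change of the mean of Y641F and A677G against H689A/F667I (y axis, bars 1 standard error) by log2 of the mean CPM over the 4 lines (x axis) for the 42 presynaptic genes. The 18 genes called lower reach from -0.22 to -1.60, the larger falls lie toward the left of the axis, and UNC13B is the gene called higher.

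Between the GOF lines themselves, 0 of the 42 genes passed in either direction, with 2 at an unadjusted p under 0.05 and 0 by edgeR's exact test, DESeq2 or limma voom. The background was 0.014% lower and 0.0701% higher. Genes called in a single GOF line were therefore not shown to differ between the lines: the log2 fold change of Y641F against A677G was -1.09 ± 0.42 (SE, adjusted p = 0.597) in RIMS1, -0.14 ± 0.15 (SE, adjusted p = 0.899) in DNM3, 0.29 ± 0.15 (SE, adjusted p = 0.754) in SYT7 and 0.41 ± 0.12 (SE, adjusted p = 0.274) in RAB3B. RAB3B passed without Y641F replicate 2 (0.54, adjusted p = 0.0231).

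Further genes of the same machinery were taken from 5 lists with 132 symbols, of which 105 were tested. In Y641F 17 were lower (16.2%, against 5.59% of all genes) and 5 higher (4.76% against 2.09%). In A677G 20 were lower (19.0% against 6.48%) and 3 higher (2.86% against 2.07%). In H689A/F667I 0 were called by edgeR, with 7 at an unadjusted p under 0.05, and in the GOF mean against the LOF line 20 were lower (19.0% against 8.75%) and 2 higher (1.905% against 3.81%). Their median log2 fold changes were -0.02 in Y641F and -0.02 in A677G, where those of all genes were 0.0025 and 0.0045. Up to 3 called genes of each list are named here, those with the largest mean change in the GOF lines.

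Of 13 other calcium sensors, 3 were lower in Y641F (23.1%) and 5 in A677G (38.5%). SYT9, a fast sensor of some synapses and of secretory granules, had 3.06 ± 0.400 CPM in WT, 0.774 ± 0.151 in Y641F, 1.44 ± 0.564 in A677G and 2.49 ± 0.259 in H689A/F667I (SD, n = 3), and had log2 fold changes of -1.99 ± 0.25 (SE, adjusted p = 7.07e-07) and -1.09 ± 0.23 (SE, adjusted p = 0.00147). SYTL2, a Rab27 effector of exocytosis, had log2 fold changes of -1.23 ± 0.34 (SE, adjusted p = 0.0161) and -1.25 ± 0.34 (SE, adjusted p = 0.0124), and SYT16 -0.99 ± 0.34 (SE, adjusted p = 0.0717) and -1.15 ± 0.35 (SE, adjusted p = 0.0308).

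Of 25 other active zone and priming genes, 5 were lower (20%) and 2 higher in Y641F, and 6 (24%) and 1 in A677G. RAB3C, a further vesicle RAB3, had 0.971 ± 0.311 CPM in WT against 0.254 ± 0.191 and 0.192 ± 0.0765 in the GOF lines, with log2 fold changes of -1.91 ± 0.44 (SE, adjusted p = 0.00316) and -2.33 ± 0.46 (SE, adjusted p = 0.000539). RAB27B, a GTPase of secretory vesicles, had log2 fold changes of -0.92 ± 0.21 (SE, adjusted p = 0.00429) and -0.85 ± 0.21 (SE, adjusted p = 0.00728), and RAB3IL1, an exchange factor for RAB3, -0.76 ± 0.21 (SE, adjusted p = 0.0171) and -1.01 ± 0.21 (SE, adjusted p = 0.00112).

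Of 10 other vesicle membrane proteins and transporters, 3 (30%) were lower in each GOF line. These were SNCB, beta-synuclein (log2 fold change -0.93 ± 0.21 SE, adjusted p = 0.00280 and -1.06 ± 0.21 SE, adjusted p = 0.000656), SYPL2, a synaptophysin relative of muscle (log2 fold change -0.84 ± 0.13 SE, adjusted p = 1.85e-05 and -0.80 ± 0.13 SE, adjusted p = 3.78e-05), and MFSD6 (log2 fold change -0.50 ± 0.16 SE, adjusted p = 0.0439 and -0.59 ± 0.16 SE, adjusted p = 0.0138). The transmitter transporters SLC17A6, SLC17A7, SLC17A8, SLC18A3 and SLC32A1 had no row and are not analysed here.

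Of 23 other SNARE proteins and regulators, 3 were lower (13.04%) and 1 higher in each GOF line. STXBP5L, a tomosyn that holds back SNARE assembly, had log2 fold changes of -0.78 ± 0.18 (SE, adjusted p = 0.00437) and -0.88 ± 0.18 (SE, adjusted p = 0.00119), and STXBP6, amisyn, -0.38 ± 0.11 (SE, adjusted p = 0.0280) and -0.39 ± 0.11 (SE, adjusted p = 0.0237). VAMP8, a SNARE of endosomes, rose in Y641F (log2 fold change 0.38 ± 0.11 SE, adjusted p = 0.0189) and had a log2 fold change of 0.26 ± 0.11 (SE, adjusted p = 0.137) in A677G. Of 34 other endocytosis genes, 3 were lower in each GOF line, with 2 higher in Y641F and 1 in A677G. The lower share, 8.82%, was near the 5.59% and 6.48% of all genes, and is no result about this list. The lower genes were SH3GL2, endophilin A1 (log2 fold change -0.58 ± 0.14 SE, adjusted p = 0.00540 and -0.48 ± 0.14 SE, adjusted p = 0.0229), DNAJC6, auxilin, which strips clathrin (log2 fold change -0.37 ± 0.07 SE, adjusted p = 0.000266 and -0.43 ± 0.07 SE, adjusted p = 2.39e-05), and STON2, stonin 2 (log2 fold change -0.24 ± 0.05 SE, adjusted p = 0.00131 and -0.22 ± 0.05 SE, adjusted p = 0.00363).

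Of 9 genes for REST and its partners, 0 were lower in any line, and REST was higher in Y641F (71.5 ± 3.17 CPM in WT, 79.7 ± 2.05 in Y641F, log2 fold change 0.16 ± 0.05 SE, adjusted p = 0.0328) and had a log2 fold change of 0.09 ± 0.05 (SE, adjusted p = 0.309) in A677G. Of the neuron markers outside the vesicle cycle, the neurofilament genes NEFL and NEFM were lower in all 3 mutant lines. NEFL had log2 fold changes of -0.75 ± 0.05 (SE, adjusted p = 1.40e-14) in Y641F, -0.86 ± 0.05 (SE, adjusted p = 5.71e-16) in A677G and -0.21 ± 0.05 (SE, adjusted p = 0.0280) in H689A/F667I. NEFM had -0.55 ± 0.06 (SE, adjusted p = 6.76e-08), -1.02 ± 0.06 (SE, adjusted p = 1.77e-14) and -0.35 ± 0.06 (SE, adjusted p = 0.00304). These 2 passed in the LOF line, where 0 of the 42 presynaptic genes did, but the precision differed between genes. Standard errors in the LOF comparison were 0.04 in PPFIA1, 0.25 in SYT13 and 0.30 in GAP43. A change the size of that in NEFL lies below the last 2 of these. ELAVL2 was lower in both GOF lines (log2 fold change -0.21 ± 0.06 SE, adjusted p = 0.0320 and -0.21 ± 0.06 SE, adjusted p = 0.0326) and RBFOX3 in Y641F (log2 fold change -0.87 ± 0.28 SE, adjusted p = 0.0455), while TUBB3, INA and NEFH were not called, and ELAVL3, ELAVL4, MAP2, STMN2 and DCX had no row. The 5 kidney and epithelial markers that were tested summed to between 44.3 and 48.04 CPM in WT, 43.0 and 51.5 in Y641F, 39.4 and 44.8 in A677G, and 50.3 and 52.4 in H689A/F667I. A further one with a row was left out of the tests and of the sums. KRT18 made up most of the WT sum. Fibroblast markers, 5 of 8 with a row, summed to between 14.3 and 15.7 CPM in WT, 17.7 and 27.4 in Y641F, 15.8 and 17.6 in A677G, and 15.5 and 19.1 in H689A/F667I. Of the 5, 2 were called higher in Y641F (40%, against 2.09% of all genes) and 1 in A677G (20%, against 2.07%), with 0 lower. COL3A1 was higher in Y641F (log2 fold change 1.34 ± 0.16 SE, adjusted p = 2.55e-07) and A677G (log2 fold change 0.93 ± 0.17 SE, adjusted p = 0.000148). The 5 did not move together: 2 had a negative log2 fold change in Y641F (down to -0.81) and 3 in A677G (down to -0.75). Of 5 blood cell markers 1 had a row, at no more than 1.30 CPM in any library. The part of these markers in the values of the presynaptic genes was not tested.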

How the data were processed

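RNA-Seq libraries of the 4 EZH2 lines (3 replicates each) were made with a stranded mRNA kit. According to the study's methods and the submitters' processing notes, reads were trimmed with Trim Galore 0.6.5, aligned to GRCh38 with STAR 2.7.9a and quantified with Salmon 1.2.0. What the authors deposited are unnormalized counts, whole numbers by gene symbol. The step from transcript estimates to counts per symbol, its strand setting and the filter that left 14438 genes are not given in the sources used here. Of the counts from 10 to below 50, between 60.0% and 63.5% in a library were even, against 49.2% to 51.7% of those from 1000 to below 5000. The counts of SYT13, a called gene, were even in every library. How many reads a low count stands for is not known.

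The 175 genes at 0 in all replicates of A677G or of H689A/F667I were left out, none of them among the genes described, and 14263 were tested in R 4.3.3 with edgeR 4.0.16 (TMM, quasi-likelihood test, 1 coefficient per line, all 12 libraries in 1 fit, Benjamini-Hochberg adjustment over all genes). CPM are TMM-normalized. The procedure was tested on simulated counts with known changes. Alternatives were edgeR's exact test (the test of the study), DESeq2 1.42.0, limma 3.58.1 voom, other scalings, filters and designs, and each replicate left out.

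Genes, lists and tests were chosen with earlier results of these data known. Every gene called against WT is described with all its values, uncalled relatives and the defining genes SYP, SYT1, STX1A and VAMP2 by line, and up to 3 called genes of each further list. Positions are from GENCODE on GRCh38 and promoters from RefSeq. Protein sequences were not used here.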

Additional observations from a re-analysis of the deposited data

How the results depend on the processing

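None of the calls turned direction under the alternatives. Of the calls against WT, 8 of 8 in Y641F and 9 of 9 in A677G held under every other test, scaling, filter and design that tested the gene (RIMS1 is not tested where at least 10 counts are asked of every sample), and 18 of 19 against H689A/F667I, where RIMS2 was lost with only the lines compared in the fit (adjusted p = 0.0548). DESeq2 called 1 gene higher in Y641F, UNC13B (adjusted p = 0.0430), with 356 higher over all genes against 298 in the main fit. Genes gained with other tests were mainly BIN1, DNM3, SYT17 and RIMS3, and the count of lower genes reached 10 in Y641F with the exact test and 12 in A677G with limma voom. Calls rose over all genes too: 940 were lower in Y641F with the exact test, against 797. With limma voom 1227 were lower in A677G, against 924.

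With each library left out in turn, the lower genes numbered 5 to 11 in Y641F, 5 to 10 in A677G and 13 to 20 in the GOF mean against H689A/F667I, and the higher genes 0 to 1 in A677G, 0 to 1 in Y641F against A677G and 1 to 2 against H689A/F667I (DNM1 added without H689A/F667I replicate 3). The presynaptic calls that held each time were 5 of 8 in Y641F, 5 of 9 in A677G and 11 of 19 against H689A/F667I. How many calls over all genes held was not counted. Each of these fits also had fewer samples, and the cause of the losses was not tested.

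With the replicate block the lower genes were 9 in Y641F, 9 in A677G and 18 against H689A/F667I. Over all genes they were 809, 933 and 1253, against 797, 924 and 1248 without the block. The replicate numbers did not pair the samples: 0 of 18 pairs of libraries with the same number correlated over 0.1 in their deviations from the line means (-0.056 to 0.050). Over all genes, the background in H689A/F667I against WT was 139 lower and 30 higher with the genes at 0 kept, against 23 and 20 without them. It was 45 and 31 with the exact test, 48 and 38 with only the lines compared, and 55 and 44 with limma voom, with 0 presynaptic genes called in each. In Y641F against A677G it was 15 and 163 with the genes at 0 kept, against 2 and 10. Removing the GC trend of each sample, chosen after seeing the data, gave 8, 9 and 18 lower presynaptic genes, in Y641F, in A677G and against H689A/F667I. Over all 13918 genes of that fit, 882, 1037 and 1409 were lower. Genes under 1.00 CPM rest on few reads.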
